A study of Mus musculus with 10 samples.

Results

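The WNT genes described here are a list of 38 names made of 18 ligands, 10 secreted inhibitors, 5 agonists and co-receptors and 5 response genes. They were found by the gene symbol that the platform annotation gives a probe set, and each gene was read from its probe set of highest mean. Of the 38 names, 37 had a probe set, out of 19938 genes in all, and Tcf7 was not analysed here. No filter on low signal was applied, so all 37 entered the test. The study compared mouse periotic tissue at embryonic day 12.5, that is, the otic vesicle, an epithelial sac that becomes the inner ear, and its surrounding mesenchyme. The 5 mutants were conditional knockouts of Tbx1, a T-box transcription factor, made with T-Cre, whose recombinase acts in mesoderm from an early stage. As controls, 5 embryos were conditional heterozygotes for Tbx1 that also carried T-Cre, so they are not wild type. Each embryo gave 1 Affymetrix Mouse Gene ST 1.0 array with left and right tissue pooled, and no strain is named in the labels. Cells that T-Cre does not reach, the otic epithelium among them, keep Tbx1 alleles in both groups.

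WNT proteins are secreted, lipid-modified ligands that bind Frizzled receptors and, in the β-catenin branch of the pathway, the co-receptors Lrp5 and Lrp6. Binding stops the breakdown of β-catenin, which then enters the nucleus and activates target genes with the factors of the TCF/LEF family. Several of these targets encode inhibitors of the pathway, so their transcripts serve both as a readout of signalling and as negative feedback. In the ear, ligands from the dorsal hindbrain, Wnt1 and Wnt3a among them, are known to pattern the dorsal otic vesicle, and secreted inhibitors are made by the mesenchyme and by forming cartilage.

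Promoter sequences are shown for Sp5, whose groups did not overlap, for Axin2 and Nkd1, response genes whose groups did overlap, and for Wnt11, the ligand with the smallest p. Each is the 250 bases before a transcription start in RefSeq, build GRCm38.p6, printed 5′ to 3′ on the strand of the gene, which is the plus strand for the 4 of them. Capitals mark a match to a TCF/LEF motif, CTTTGAT or CTTTGAA, searched on both strands, and no match overlapped another. The coordinates are chr2:70474673-70474922 for Sp5, chr11:108920099-108920348 for Axin2, chr8:88527383-88527632 for Nkd1 and chr7:98834862-98835111 for Wnt11.
Sp5: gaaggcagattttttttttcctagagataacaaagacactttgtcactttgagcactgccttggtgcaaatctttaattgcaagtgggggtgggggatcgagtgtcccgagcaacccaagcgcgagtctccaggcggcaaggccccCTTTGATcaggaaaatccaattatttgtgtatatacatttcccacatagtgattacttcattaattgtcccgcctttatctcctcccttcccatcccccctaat
Axin2: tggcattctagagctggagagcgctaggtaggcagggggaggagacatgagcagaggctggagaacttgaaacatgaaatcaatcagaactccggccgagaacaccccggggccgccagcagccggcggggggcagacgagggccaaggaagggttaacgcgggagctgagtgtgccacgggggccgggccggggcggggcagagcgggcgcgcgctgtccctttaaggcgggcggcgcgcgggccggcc
Nkd1: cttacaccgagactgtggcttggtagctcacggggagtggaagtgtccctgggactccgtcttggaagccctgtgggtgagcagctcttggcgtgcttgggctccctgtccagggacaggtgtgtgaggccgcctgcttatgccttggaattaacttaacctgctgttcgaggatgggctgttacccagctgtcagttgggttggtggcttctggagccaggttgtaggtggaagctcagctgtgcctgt
Wnt11: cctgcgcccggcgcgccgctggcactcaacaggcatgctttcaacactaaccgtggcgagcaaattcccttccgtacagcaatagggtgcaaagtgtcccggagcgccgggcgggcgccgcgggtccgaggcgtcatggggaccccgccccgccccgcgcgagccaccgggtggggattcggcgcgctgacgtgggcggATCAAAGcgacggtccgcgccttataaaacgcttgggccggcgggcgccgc

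The Sp5 window held CTTTGAT from 104 to 98 bases before the start. The Wnt11 window held the same motif on the opposite strand, printed as ATCAAAG, from 51 to 45 bases before the start. The window of a further Wnt11 start in the table, not printed, held no match, nor did 2 of the 3 Wnt5b windows, and a gene was counted where any of its windows matched. The promoter table matched 26 of the 37 genes, and CTTTGAT was found in 3 of them, Sp5, Wnt11 and Wnt5b, against 3.72% of all 27025 genes in that table. CTTTGAA was found in 1, Dkk1, against 5.19% of all genes. The T-box half-site GGTGTGA was found in 0 of the 26 genes, against 3.84% of all genes. A match describes these letters and not a bound site. Notum is not in the promoter table.

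No WNT gene passed the adjusted threshold of 0.05 between mutants and controls by limma, where 0.0100% of all genes did. The smallest adjusted p of the 37 was 0.569, that of Notum. At an unadjusted p under 0.05 there were 2 of 37, or 5.41%, Notum and Sp5, against 7.82% of all genes, so this share lies near that of the whole array. Both lay in the lower direction, against 3.11% of all genes, and 0 in the higher direction, against 4.70%. For Notum and Sp5 each mutant also read below each control. That is 5.41% of the 37 without overlap, against 1.83% of all genes in either direction and 0.552% in the lower direction. The direction was not set in advance. No WNT gene had its mutants all above its controls, against 1.27% of all genes. Of the 37 differences, 27 were below 0 and 10 above it, with a median of -0.05 on the log2 scale, while 50.9% of all genes lay below 0 with a median of -0.0021. Without mutant 5 the median was -0.02 with 22 of 37 below 0, and without mutant 4 it was -0.02 with 23 below 0. Leaving out single arrays in turn changed the sign of 12 of the 37 differences at least once. In the arrays numbered 4 and 5 the median was -0.13 with 27 below 0, and in those numbered 1 to 3 it was -0.03 with 19 below 0. The plot of differences by role shows that each interval but those of Notum and Sp5 includes 0. The interval of the difference lay within 0.5 of 0 on the log2 scale for 34 of the 37 genes, against 94.2% of all genes. The exceptions were Notum, Wif1 and Wnt1.

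**Figure D1:**
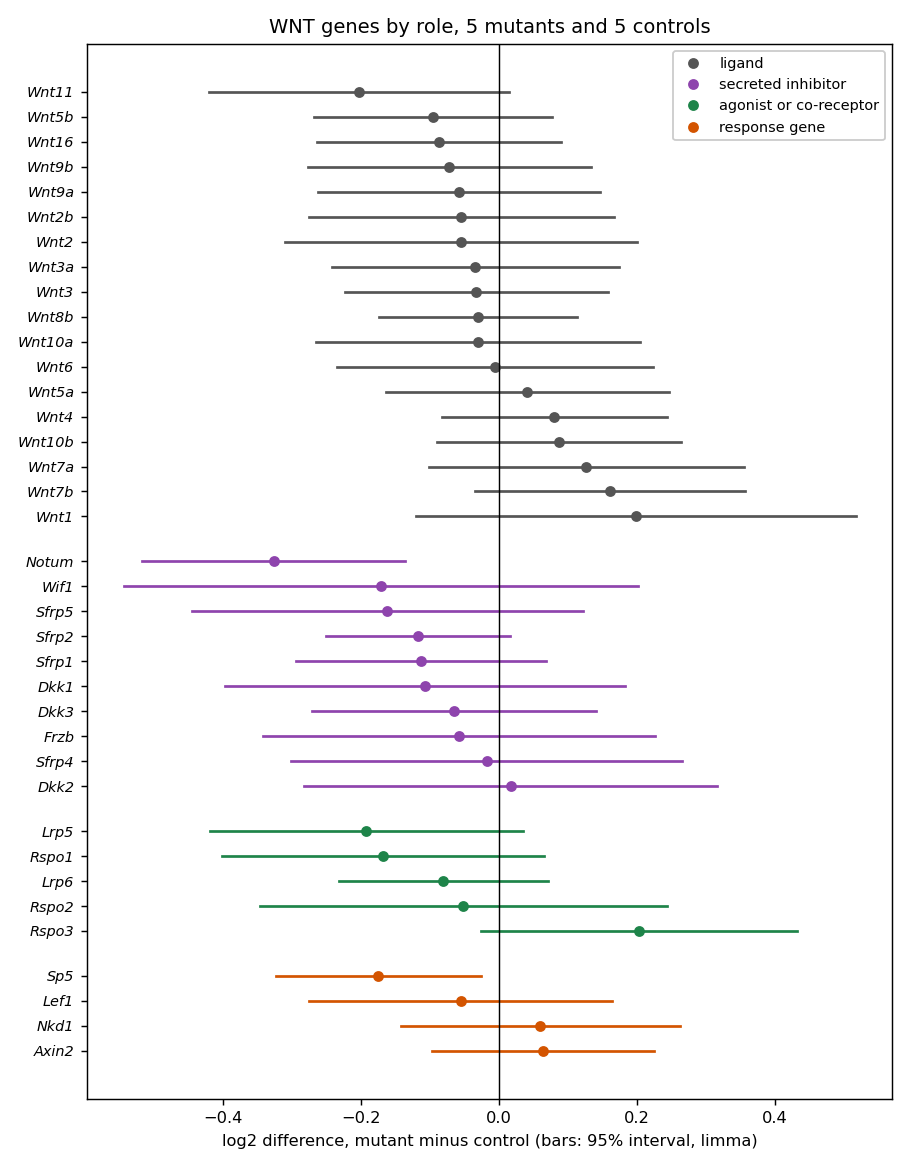
The log2 difference of each of the 37 WNT genes, mutant minus control, with its 95% interval from limma over 5 mutant and 5 control arrays, grouped by role. The intervals of Notum (-0.52 to -0.14) and Sp5 (-0.32 to -0.03) lie below 0, and those of the other genes include 0.

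The targeted gene and the tissue were checked on the same arrays. Tbx1 read 7.58 to 8.40 in the mutants and 8.23 to 9.01 in the controls, with a log2 difference of -0.88 and an adjusted p of 0.451 by limma, and only mutant 1 of the mutants overlapped the controls. Arrays correlated at 0.985 to 0.993, and array medians lay between 6.19 and 6.27. Background was taken as the highest reading of 3 Y-linked genes among 7 female embryos, 4.36. All 36 WNT genes other than Wnt8b read above it on the 10 arrays, and 34 read above 5.49, the 95th percentile of 1035 olfactory receptor probe sets, on the 10 arrays. The otic epithelium markers (10 of 10 measured) and periotic mesenchyme markers (6 of 6) were above background. In a bulk sample, fewer cells of a type and less RNA per cell cannot be told apart.

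Notum encodes a secreted deacylase that removes the lipid from WNT proteins and is itself a known target of the pathway. Its log2 signal (probe set 10393904, chromosome 11) was 6.22, 6.11, 5.90, 6.03 and 6.002 in mutants 1 to 5, against 6.62, 6.38, 6.25, 6.38 and 6.28 in controls 1 to 5. The highest mutant, number 1, lay just below the lowest control, number 3. Means were 6.05 ± 0.12 in the mutants and 6.38 ± 0.15 in the controls (SD, n = 5 each). Mutants minus controls gave -0.33 on the log2 scale (SE 0.09), which corresponds to 79.8% of the control signal (interval 69.9 to 91.0%). The exact permutation p was 0.00794, the smallest that 5 against 5 arrays can give. Any gene whose groups do not overlap has this value, so it adds nothing to the lack of overlap. The limma adjusted p over the 21789 probe sets with 1 gene symbol was 0.569, so Notum missed the threshold. By unadjusted p it ranked 69 of 19938 genes. Arrays numbered 1 to 3 alone gave -0.34, and those numbered 4 and 5 gave -0.31. As the groups did not overlap, the mutant was necessarily below the control of the same number in 5 of 5 cases. Leaving out single arrays moved the difference between -0.37 and -0.27.

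Sp5, a zinc finger transcription factor of the Sp family that WNT signalling induces directly, showed a smaller difference in the same direction. Its log2 signal (probe set 10472688, chromosome 2) was 6.46, 6.49, 6.50, 6.28 and 6.44 in mutants 1 to 5, against 6.63, 6.64, 6.52, 6.66 and 6.58 in controls 1 to 5. The groups were separated by a narrow gap, from 6.50 in mutant 3 to 6.52 in control 3. Mutants minus controls gave -0.17 on the log2 scale (SE 0.07), or 88.6% of the control signal (interval 79.9 to 98.2%). The exact permutation p was 0.00794, which again follows from the lack of overlap, and the limma adjusted p was 0.583. Within the arrays numbered 1 to 3 the difference was -0.12, and within those numbered 4 and 5 it was -0.26. The unadjusted limma p of Sp5 was above 0.05 without mutant 4, without control 4, in either subset by array number and in the fit that blocks on the replicate number. Its mutant value was below the control of the same number in 5 of 5 cases, which follows from the lack of overlap.

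The other measured response genes did not share that separation. Axin2, a scaffold of the β-catenin destruction complex and a widely used readout of the pathway, read 8.35, 8.49, 8.34, 8.57 and 8.51 in mutants 1 to 5, against 8.33, 8.35, 8.25, 8.55 and 8.48 in controls 1 to 5. Its groups overlapped, and mutant and control of a number lay close together, with the mutant above in 5 of 5 cases, as for 5.91% of all genes. The log2 difference of Axin2 was 0.06 (interval -0.10 to 0.23, adjusted p = 0.840 by limma). Nkd1, which binds Dishevelled and dampens the signal, read 8.71, 8.93, 8.59, 8.88 and 8.88 in mutants 1 to 5, against 8.93, 8.61, 8.56, 8.93 and 8.67 in controls 1 to 5. Numbers 3 were the lowest of each group for Nkd1, and the difference was 0.06 (interval -0.14 to 0.26). Lef1, a TCF/LEF family factor and a target of the pathway in many tissues, read 8.996, 9.34, 9.16, 8.88 and 8.75 in mutants 1 to 5, against 9.17, 9.11, 8.95, 8.98 and 9.19 in controls 1 to 5. The Lef1 mutants spread more widely than the controls, with mutant 5 lowest and mutant 2 highest, and the difference was -0.06 (interval -0.27 to 0.16). The Sp5 interval, -0.32 to -0.03, overlaps those of Axin2, Nkd1 and Lef1. The Notum interval, -0.52 to -0.14, overlaps that of Lef1 and barely that of Nkd1, and lies below that of Axin2. The differences between these genes were not tested. Dkk1 and Wif1, inhibitors that are targets in some tissues, are given with the inhibitors.

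**Figure D2:**
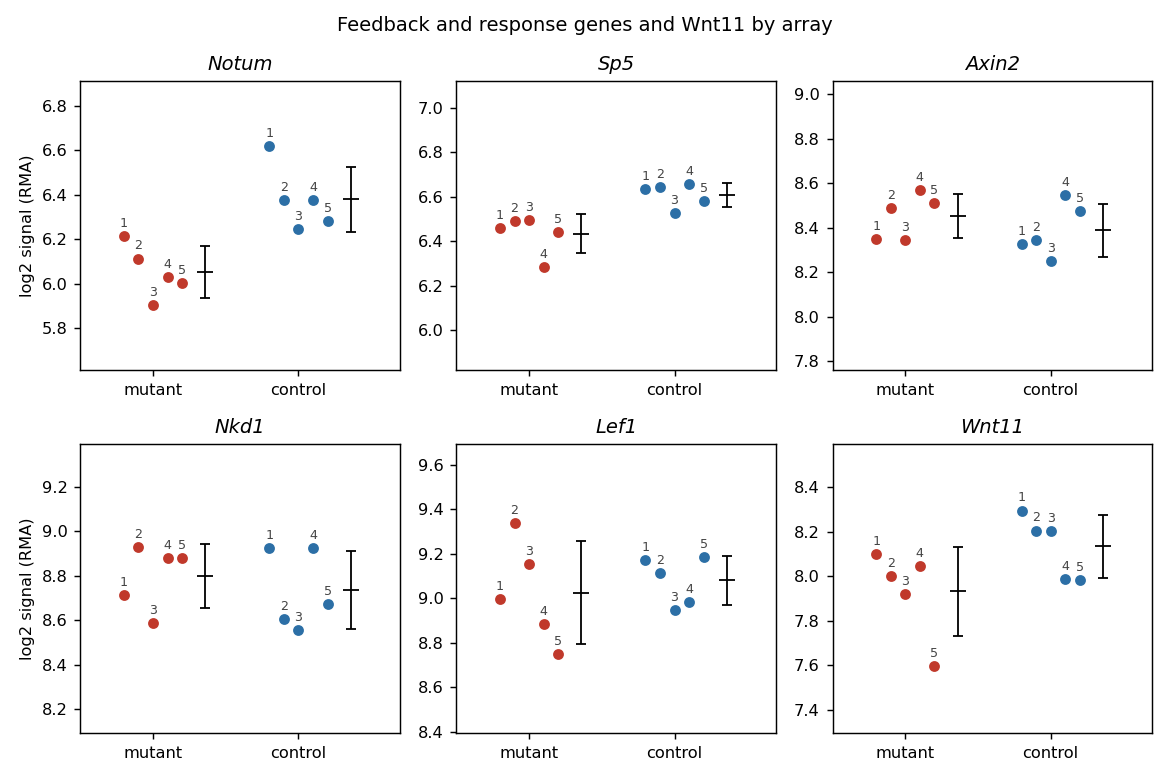
Log2 signal of 5 feedback or response genes and of Wnt11 on each array, mutants left and controls right, with the replicate number above each point and the mean ± SD (n = 5) beside each group; each panel spans the same range on the y axis. Each mutant lies below each control for Notum and Sp5, and the groups overlap for Axin2, Nkd1, Lef1 and Wnt11.

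Means of marker lists were also compared, and the ranges of mutants and controls overlapped for each list given here. The mean of the 10 otic epithelium markers ranged 7.60 to 7.78 in the mutants and 7.73 to 7.92 in the controls, and 8 of the 10 were lower in the mutants. Only mutant 5, at 7.78, overlapped the controls. The difference of this mean was -0.14, with an exact permutation p of 0.0238, not adjusted for the number of lists. The mean of the 6 cartilage markers ranged 8.37 to 9.12 in the mutants and 8.72 to 9.32 in the controls, with 6 of 6 lower. For the 7 ganglion neuron markers the mean ranged 8.57 to 9.58 in the mutants and 8.08 to 9.22 in the controls, with 7 of 7 higher. The mean of the 5 skeletal muscle markers ranged 8.90 to 9.49 in the mutants and 9.20 to 9.58 in the controls, with 5 of 5 lower. The mean of the 4 endothelial markers ranged 8.83 to 9.28 in the mutants and 8.87 to 9.02 in the controls, with 4 of 4 higher. The periotic mesenchyme mean ranged 9.09 to 9.47 in the mutants and 9.31 to 9.49 in the controls. For the lists given here other than otic epithelium, the exact permutation p ran from 0.0714 for cartilage to 0.524 for periotic mesenchyme. No defining marker of these lists was under background, and the part of these tissues in the Notum and Sp5 values was not tested.

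Among the 10 secreted inhibitors, 9 had a difference below 0, with a median of -0.11, and 0 passed the threshold. Sfrp1, Sfrp2, Sfrp4, Sfrp5 and Frzb belong to the secreted Frizzled-related proteins, which hold a Frizzled-like domain and bind WNTs outside the cell. Sfrp2 read 11.78, 11.77, 11.77, 11.89 and 11.82 in mutants 1 to 5, against 12.12, 11.91, 11.76, 11.98 and 11.84 in controls 1 to 5. The mutants of Sfrp2 lay close together, whereas controls 1, 2 and 4 stood above the mutants. The Sfrp2 difference was -0.12 (interval -0.25 to 0.02), or -0.07 without control 1. Sfrp1 read 10.18, 10.20, 10.12, 10.22 and 9.80 in mutants 1 to 5, against 10.34, 10.25, 10.15, 10.06 and 10.27 in controls 1 to 5. Mutant 5 was the lowest array, and the Sfrp1 difference was -0.11 with it and -0.04 without it. Frzb, an inhibitor first found in cartilage, read 9.40, 9.17, 9.20, 8.67 and 8.79 in mutants 1 to 5, against 9.09, 9.20, 9.16, 8.82 and 9.24 in controls 1 to 5. In both groups Frzb was lowest in number 4, and the difference was -0.06 (interval -0.34 to 0.23), or 0.01 without mutant 5. Sfrp5 ranged 6.19 to 6.72 in the mutants and 6.43 to 7.10 in the controls, with a difference of -0.16, or -0.07 without control 1. For Sfrp4 the ranges were 5.45 to 5.81 in the mutants and 5.26 to 6.09 in the controls, with a difference of -0.02, and 7 of its 10 values exceeded the olfactory receptor percentile.

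None of the 3 Dickkopf proteins or Wif1 passed the threshold. Dkk1, which blocks Lrp5 and Lrp6, ranged 6.34 to 7.24 in the mutants and 6.77 to 7.07 in the controls, with a difference of -0.11 (interval -0.40 to 0.18). Arrays numbered 1 to 3 alone gave 0.10, and those numbered 4 and 5 gave -0.42, with mutant 4 the lowest array. Without mutant 4 the Dkk1 difference was 0.01. Dkk2, which also binds Lrp6, read 9.08, 9.10, 9.01, 9.03 and 8.47 in mutants 1 to 5, against 9.25, 8.93, 8.53, 8.97 and 8.92 in controls 1 to 5. Mutant 5 and control 3 lay below the other 8 arrays, and the Dkk2 difference was 0.02 (interval -0.28 to 0.32). Dkk3, a divergent member of the family, had -0.06. Wif1, which binds WNTs directly, had the largest pooled within-group SD of the 37 genes, made of an SD of 0.31 in the mutants and 0.34 in the controls. It was highest in number 4 of each group, and its difference was -0.17 (interval -0.54 to 0.20), -0.29 without mutant 4 and -0.06 without control 4.

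Of the 18 ligands, 12 had a difference below 0 and 6 above it, and 0 reached an unadjusted p under 0.05. Wnt5a, the main ligand of the β-catenin-independent branch, read 9.71, 9.95, 9.85, 10.03 and 9.79 in mutants 1 to 5, against 9.72, 9.92, 9.53, 10.05 and 9.90 in controls 1 to 5. The mutants lay within the range of the controls, of which control 3 was below all the mutants, and the difference was 0.04 (interval -0.16 to 0.25). Its close relative Wnt5b had -0.09 (interval -0.27 to 0.08). Wnt11, which acts in cell movement and polarity, had the smallest p of the ligands and read 8.10, 7.998, 7.92, 8.04 and 7.60 in mutants 1 to 5, against 8.29, 8.20, 8.20, 7.99 and 7.98 in controls 1 to 5. Controls 1 to 3 lay above the mutants, and controls 4 and 5 lay among them. The Wnt11 difference was -0.20 (interval -0.42 to 0.01, adjusted p = 0.635 by limma) and -0.12 without mutant 5.

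None of the ligands best known from the neural tube reached an unadjusted p under 0.05. Wnt1, made in the dorsal midline, had the widest interval of the ligands, at -0.12 to 0.52 around 0.20. It ranged 5.44 to 5.91 in the mutants and 4.95 to 5.77 in the controls, with control 1 lowest, and the Wnt1 difference was 0.06 without control 1. Wnt3a, its partner in the dorsal hindbrain, had -0.03 (interval -0.24 to 0.17). Wnt8b, a forebrain ligand, read 4.28 to 4.45 in the mutants and 4.33 to 4.51 in the controls, at the level of background, so no difference is drawn from it. Wnt7a, also made in neural tissue, had 0.13 (interval -0.10 to 0.35), and Wnt7b had 0.16 (interval -0.03 to 0.36). The Wnt7b controls lay within 7.52 to 7.62, and 4 of the 5 mutants read above them.

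Wnt2b read 7.18, 7.17, 7.21, 7.67 and 7.11 in mutants 1 to 5, against 7.38, 7.31, 7.25, 7.24 and 7.43 in controls 1 to 5. Mutant 4 stood above the other 9 arrays for Wnt2b, the other 4 mutants lay below the lowest control, and the difference was -0.05 (interval -0.28 to 0.17), or -0.16 without mutant 4. Its relative Wnt2 had -0.05. Wnt3, Wnt6 and Wnt10a, ligands known from ectoderm, had -0.03, -0.01 and -0.03. For Wnt10b, a ligand known from bone and fat, the difference was 0.09. Wnt4 and Wnt9b, which act in kidney tubule formation, had 0.08 and -0.07. A further Wnt4 probe set of lower mean, 6.93 against 7.16, ranged 6.71 to 7.17 in the mutants and 6.79 to 7.13 in the controls. Wnt9a, known from joints, and Wnt16, known from bone, had -0.06 and -0.09. The standard errors of the 18 ligand differences lay between 0.07 and 0.15 on the log2 scale.

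Among the agonists and co-receptors, Rspo3 had a difference above 0 and the other 4 below it. R-spondins are secreted proteins that raise the number of Frizzled receptors at the cell surface. Rspo3 read 8.19, 8.13, 8.06, 8.09 and 7.61 in mutants 1 to 5, against 7.90, 7.74, 7.83, 7.65 and 7.94 in controls 1 to 5. Mutants 1 to 4 lay above the controls and mutant 5 below them. The Rspo3 difference was 0.20 (interval -0.03 to 0.43, adjusted p = 0.655) by limma, and without mutant 5 it was 0.31 (interval 0.15 to 0.47, adjusted p = 0.566). Over the alternatives the limma adjusted p of Rspo3 ran from 0.501 to 0.974. The R-spondins Rspo1 and Rspo2 had -0.17 (interval -0.40 to 0.07) and -0.05 (interval -0.35 to 0.24). Lrp5, a co-receptor, read 9.33, 9.32, 9.09, 9.20 and 8.80 in mutants 1 to 5, against 9.26, 9.60, 9.21, 9.35 and 9.29 in controls 1 to 5. Mutant 5 was lowest and control 2 highest, and the Lrp5 difference was -0.19 with mutant 5 and -0.10 without it. Lrp6, the paralogous co-receptor, read 10.31, 10.28, 10.27, 10.34 and 10.01 in mutants 1 to 5, against 10.27, 10.46, 10.21, 10.29 and 10.38 in controls 1 to 5. Mutant 5 again lay below the other 9 arrays, and the Lrp6 difference was -0.08 (interval -0.23 to 0.07), or -0.02 without it.

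Variation among the embryos of 1 group was larger for many WNT genes than the difference between the groups. The pooled within-group SD had a median of 0.17 over the 37 genes, against 0.13 over all genes, and ran from 0.07 for Sp5 to 0.33 for Wif1. Mutant 5 was the lowest mutant for 15 of the 37 genes, Sfrp1, Dkk2, Rspo3, Lrp5, Lrp6, Wnt11 and Lef1 among them, and the highest for 3. Those 3 were Wnt1, Wnt7a and Wnt7b. Wnt1 in mutant 5, at 5.91, lay close to mutant 4, at 5.86. Of the other ligands given with the neural tube, Wnt3a and the background-level Wnt8b had mutant 5 between other mutants. Among the controls, number 3 was lowest for 16 genes. The mean of 9 hindbrain and neural tube markers was 7.54 in mutant 5, 6.07, 5.84, 5.97 and 6.06 in mutants 1 to 4, and 5.86 to 6.68 in the controls. The periotic mesenchyme mean was 9.09 in mutant 5, the lowest of the 10 arrays. Their part in the WNT values of mutant 5 was not tested. Without mutant 5, 22 of the 37 differences were below 0 and the differences of Wnt7a and Wnt7b were 0.05 and 0.09.

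**Figure D3:**
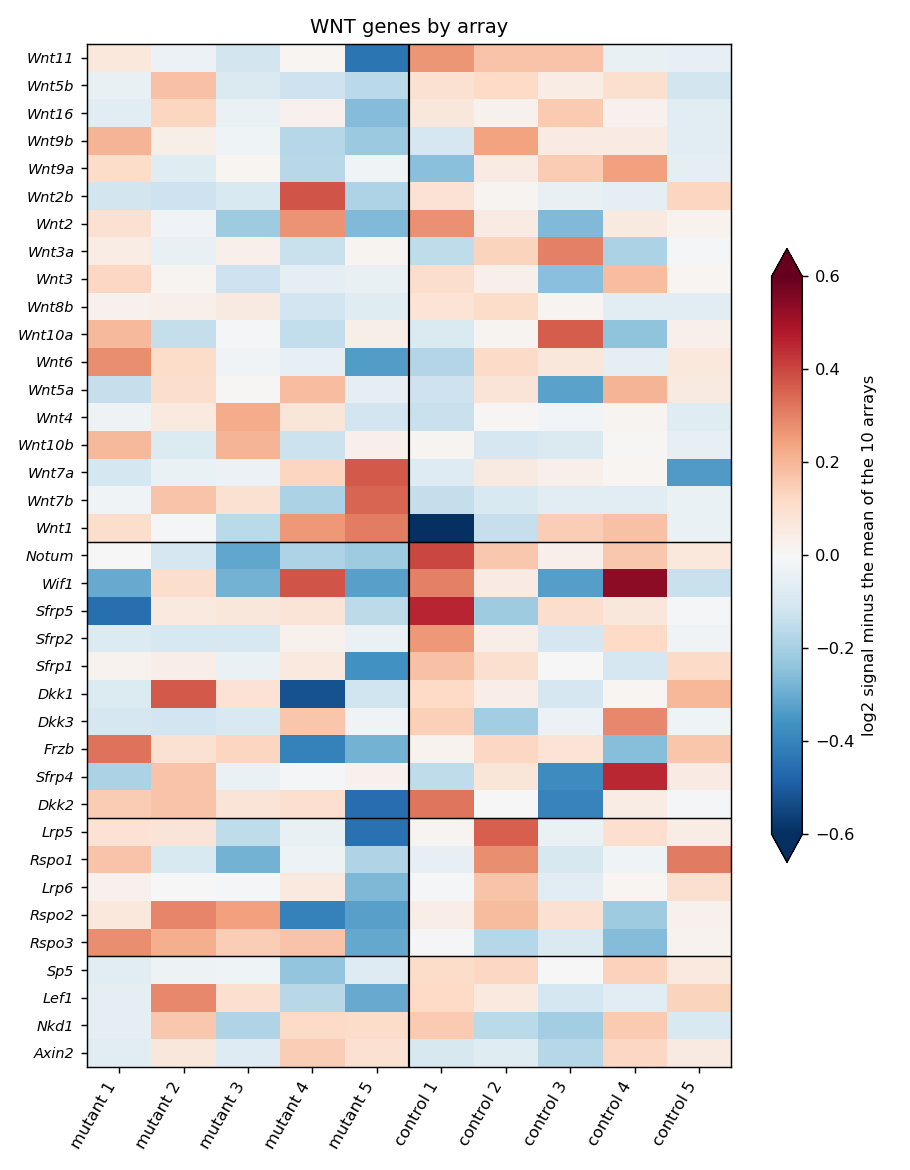
Log2 signal of each WNT gene (rows, by role and then by difference) on each array (columns, mutants left of the line, controls right), minus the mean of the 10 arrays for that gene; the colour scale runs from -0.6 to 0.6. Notum and Sp5 are below their mean in the mutants except for Notum in mutant 1, which is near it, and mutant 5 has many of the lowest values.

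**Figure D4:**
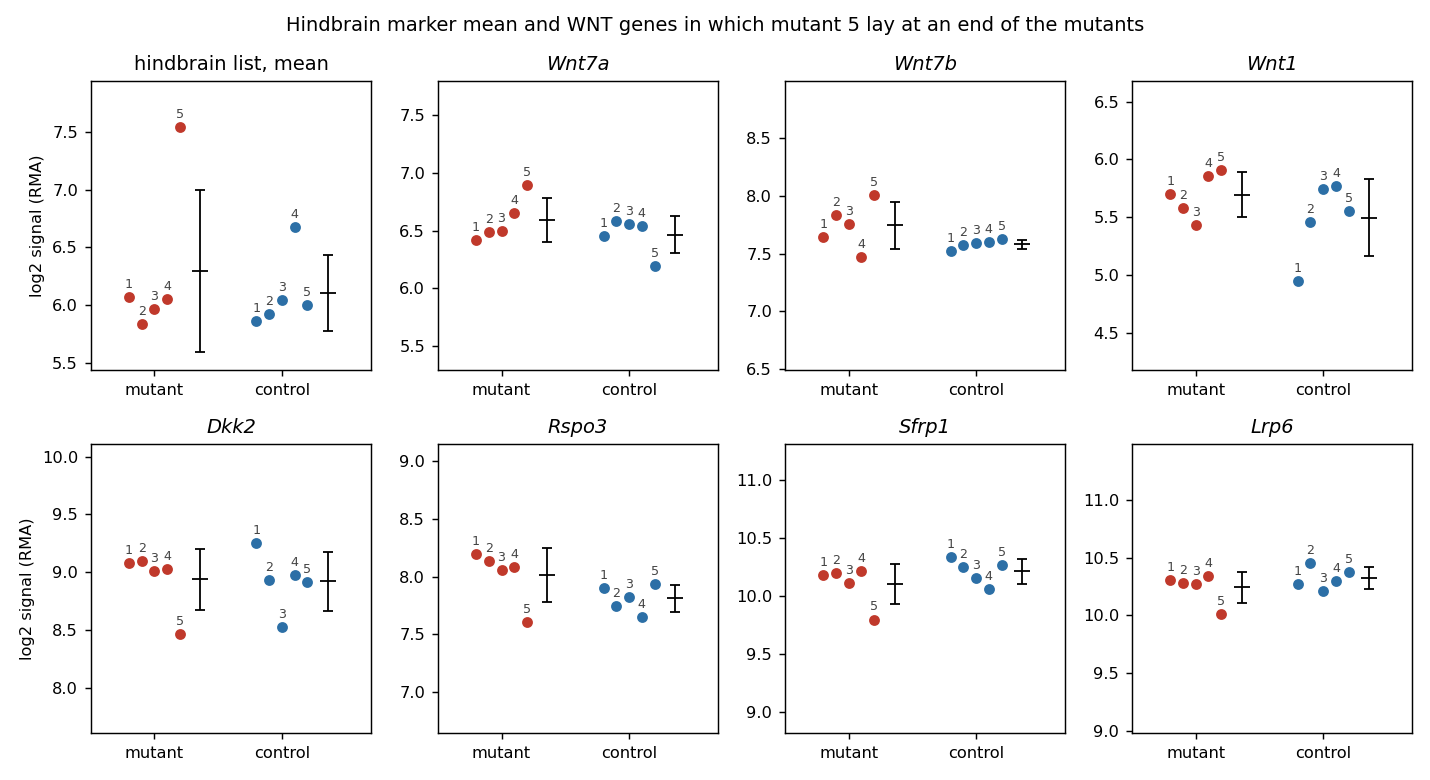
Log2 signal by array of the hindbrain marker mean and of 7 WNT genes, mutants left and controls right, with replicate numbers and mean ± SD (n = 5); each panel spans the same range on the y axis. Mutant 5 is the highest mutant for the hindbrain mean, Wnt7a, Wnt7b and Wnt1 and the lowest for Dkk2, Rspo3, Sfrp1 and Lrp6.

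The arrays were also compared by replicate number, where Rspo2 was the only WNT gene clear of background whose sets did not overlap. Earlier results of these data set the 4 arrays numbered 4 and 5 apart from the 6 numbered 1 to 3 by immediate early genes, such as Fos, and the labels name no such batch. Rspo2 read 7.38 to 7.81 in the arrays numbered 4 and 5 and 7.82 to 8.08 in those numbered 1 to 3, with mutants and controls on both sides. The difference of Rspo2, numbers 4 and 5 minus 1 to 3, was -0.38 (interval -0.58 to -0.19, adjusted p = 0.127 by limma with group in the fit). These sets did not overlap for 2 of the 37 genes, Rspo2 and the background-level Wnt8b, against 2.73% of all genes. The threshold was passed by 0 of the 37, against 0.191% of all genes. Frzb had -0.32 and Axin2 0.17 on this comparison, both with overlap.

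The rest of the pathway was read from 77 further genes, all measured, and 0 passed the adjusted threshold by limma. At an unadjusted p under 0.05 there were 7, or 9.09%, against 7.82% of all genes, 5 lower and 2 higher in the mutants. Of the 77 differences 51 were below 0, with a median of -0.04. The 4 of smallest p were the Frizzled receptors Fzd4 and Fzd9, the Dishevelled-binding protein Dact2, and Wls, which carries WNT proteins to the cell surface. Fzd4 read 8.30, 8.40, 8.15, 8.49 and 8.10 in mutants 1 to 5, against 8.63, 8.79, 8.54, 8.61 and 8.69 in controls 1 to 5. Each Fzd4 mutant lay below each control, with a difference of -0.36 (interval -0.54 to -0.18, adjusted p = 0.569 by limma). Fzd9 had -0.38 (interval -0.60 to -0.17), Dact2 had -0.24 (interval -0.41 to -0.07) and Wls had 0.18 (interval 0.04 to 0.31). Chosen after their values were seen, the other 3 were Fzd8 at -0.32, the formin Daam1 of the polarity branch at 0.25, and cyclin D1, Ccnd1, at -0.19. The groups did not overlap for Fzd4 and Daam1, or 2 of 77, against 1.83% of all genes.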

How the data were processed

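RNA of periotic tissue was measured on 10 arrays, 5 mutant and 5 control, grouped by the sample titles, which name them biological replicates. The authors deposited log2 values made by RMA (background correction, 1 common distribution, probe summary) in Affymetrix Expression Console 1.1, according to the submitters' processing notes. That the scale is log2 was read from the values. The probe file version is not stated in the labels. A signal is not comparable between probe sets, and with arrays there is no read depth, so precision rests on their number.

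Of 35557 probe sets, 21789 carried 1 gene symbol in the platform annotation, 1621 several and 12147 were not listed. For 21698 of the 21789, the gene id was found in the RefSeq table of GRCm38.p6, and the name was taken from there. The comparison used limma 3.58.1 under R 4.3.3, with lmFit and a trended eBayes, two-sided p-values adjusted by Benjamini-Hochberg over the 21789 probe sets, a threshold of 0.05 and 95% intervals. Two-sided exact permutation tests of group means used the 252 splits of 5 against 5 arrays. They were computed for each of the 37 genes, the 77 further pathway genes, each marker gene, the mean of each marker list, and Tbx1 and other single genes. These p-values were not adjusted for their number. Simulated data with known changes were used to test the fit. The WNT genes and the other lists were chosen with earlier results of these data known.

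Values in all arrays are given for members at an unadjusted p under 0.05 or without overlap, the 6 of highest mean signal, and members with an array far from its group. Axin2, Nkd1, Lef1, Wnt11 and other members singled out were chosen after their values were seen. Of the other pathway genes, the 4 of smallest p were named by rule. Deviations from the group mean gave mutant-control correlations of 0.110 to 0.236 at the same number and -0.382 to 0.385 at different ones. Of the 5 mutants, 3 correlated best with the control of their own number. This measure does not settle whether the numbers pair the arrays, and nothing in the labels states what a number stands for. Alternatives were a replicate block, other eBayes settings, a further quantile normalization, array weights, sex, a filter on dim probe sets, all probe sets, the mean of a gene's probe sets, subsets by array number, and leaving out each array.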

Additional observations from a re-analysis of the deposited data

Results flagged for a closer look

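Of 74 groups of 5 values, made of 37 WNT genes in mutants and controls, 6 held an array whose gap to the nearest other array took most of the group's range, where chance marks about 3.7. In mutant 5 there were 4 such low values, Sfrp1 at 9.797, Dkk2 at 8.47, Rspo3 at 7.606 and Lrp6 at 10.01 on the log2 scale. Mutant 4 held the others, a high Wnt2b value of 7.674 and a low Sp5 value of 6.283. The 74 groups share the same 10 arrays, so the marks are not independent.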

How the results depend on the processing

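The number of WNT genes past the adjusted threshold was 0 in the main analysis and under all 22 alternatives. The number at an unadjusted p under 0.05 was 2, and it was 1 in the arrays numbered 4 and 5 alone, 2 to 4 when single arrays were left out (4 without mutant 1) and 2 or 3 under the other alternatives. With the replicate number as a block it was 3, Notum, Wnt11 and Lrp5, and the block changed no call at the adjusted threshold. The median log2 difference of the 37 genes was -0.05, -0.13 in the arrays numbered 4 and 5 alone, and -0.07 to -0.02 when single arrays were left out. Notum stayed below 0 under all 22, at -0.37 to -0.27, and Sp5 likewise, at -0.26 to -0.12.

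At least 27 of the 37 differences kept their sign under each alternative. Of the 11 genes given in all arrays by rule, signs turned for 4. The difference of Dkk2 was 0.02 in the main analysis, -0.0035 after a further quantile normalization and -0.20 in the arrays numbered 4 and 5, and it ran from -0.081 to 0.13 when single arrays were left out. It was below 0 without mutants 1, 2, 3 or 4 (-0.02, -0.02, -0.000247 and -0.0061) and without control 3 (-0.081). For Frzb it was -0.06 in the main analysis and 0.11 in the arrays numbered 1 to 3, and it ran from -0.15 to 0.037 when single arrays were left out, with 0.037 without mutant 4 and 0.0066 without mutant 5. For Wnt5a it was 0.04 in the main analysis and -0.066 in the arrays numbered 4 and 5, and ran from -0.033 (without control 3) to 0.098 when single arrays were left out. Wnt2b had -0.055 in the main analysis and 0.058 in the arrays numbered 4 and 5. The cause of these changes was not tested. With the olfactory receptor percentile as background, 34 rather than 36 genes lay above it on the 10 arrays, and signal near background limits Wnt8b, Wnt1 and Sfrp4. Notum and Sp5 were dim as well, with control means 0.89 and 1.12 above that percentile on the log2 scale.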
